A study of Mus musculus with 15 samples.

Results

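The human MET signature described here is the set of mouse genes that were higher, or lower, in each of 3 liver models carrying human MET than in both kinds of liver without it. It rests on 9 libraries with human MET, set against 6 without it, out of 15 in all. A gene belonged to the set when its adjusted p was below 0.05 in the same direction in 6 contrasts, which set each of the 3 models against each of the 2 groups without MET (edgeR quasi-likelihood test, Benjamini-Hochberg adjustment). Of 14098 genes tested, 97 were higher and 24 lower in livers with MET by this rule. The higher genes were led by the cytochrome P450 gene Cyp2b9, the cytohesin-binding gene Ipcef1, the inositol oxygenase gene Miox and the P450 gene Cyp2b13, and they held 6 genes of antigen presentation. The lower genes changed less and were led by the sphingomyelin synthase gene Sgms2 and the P450 gene Cyp4a12a.

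MET is the receptor tyrosine kinase of hepatocyte growth factor (HGF), a ligand that mesenchymal cells secrete as an inactive precursor and that serine proteases cleave into its active form. Ligand-bound MET phosphorylates its own tail, which recruits the adaptors GRB2 and GAB1 and passes the signal to the RAS-ERK and PI3K-AKT pathways. In liver this pathway is known for hepatocyte survival and division during regeneration, and MET is overexpressed or active in a share of hepatocellular carcinomas.

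PolyA RNA from livers of male FVB/NJ mice was sequenced in 15 libraries, 3 for each of 5 groups. CTNNB1_NFE2L2_MET livers carried S45Y mutant CTNNB1 (β-catenin), G31A mutant NFE2L2 (which encodes NRF2) and human MET. CTNNB1_MET livers carried the mutant CTNNB1 and human MET, and NFE2L2_MET livers carried the mutant NFE2L2 and human MET. CTNNB1_NFE2L2 livers carried both mutants without MET, and WT livers were wild type. Human MET was therefore the one labelled difference only between CTNNB1_NFE2L2_MET and CTNNB1_NFE2L2. CTNNB1_MET also lacked the mutant NFE2L2 of CTNNB1_NFE2L2, NFE2L2_MET also lacked its mutant CTNNB1, and against WT every transgene of a model differed. Age, vector, promoter, time since the genes were introduced and the share of cells that carried them are not stated by the labels. Nothing in the labels says that the libraries came from separate animals, so p-values describe only how far these samples spread, which may be technical.

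Total gene counts per library ran between 20702618 in CTNNB1_MET replicate 3 and 14084343 in WT replicate 1, and levels are given as CPM, the counts scaled to a common library size by TMM, with the replicates in order. Hepatocyte markers were abundant in every library, at 28574 to 173395 CPM summed over 7 genes, and the sum was lowest in the 3 CTNNB1_NFE2L2 libraries. Unmapped reads averaged 10.3% in CTNNB1_NFE2L2_MET, 17.2% in CTNNB1_MET, 13.7% in NFE2L2_MET, 10.7% in CTNNB1_NFE2L2 and 22.9% in WT, so this share moved with the groups. With the unmapped share as a term of the model, 6 of the higher genes and 0 of the lower genes met the rule, among them Cyp2b9, Ipcef1, Miox, Ces2e and Bco1. WT replicate 2 stood apart from the other WT libraries (chi-square per gene 94.2 and 110.3, against 37.7 between replicates 1 and 3), and so did NFE2L2_MET replicate 2 (67.5 and 51.5, against 27.8). Without WT replicate 2 the rule gave 97 higher and 36 lower genes, and without NFE2L2_MET replicate 2 it gave 88 and 14. Without both it gave 90 higher and 28 lower genes, of which 74 and 12 were members. The data of CTNNB1_NFE2L2_MET replicate 3, CTNNB1_MET replicate 3 and WT replicate 3 carry the mark ADDED, whose meaning is not stated; without these 3 libraries the rule gave 87 higher and 33 lower genes (71 and 15 of them members), and with a term for them 90 and 28.

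The mouse Met gene was measured first, although reads of human MET may align to it only in part, and mouse and human transcripts cannot be told apart in these counts. Met had 86.6, 79.2 and 83.8 CPM in CTNNB1_NFE2L2_MET, 64.9, 73.0 and 72.2 in CTNNB1_MET, 86.4, 91.7 and 79.4 in NFE2L2_MET, 82.5, 85.7 and 78.8 in CTNNB1_NFE2L2, and 53.6, 96.0 and 78.1 in WT. The groups overlapped, and the labelled presence of human MET was not visible in the mouse gene (log2 fold change over the 9 libraries against the 6, 0.01 ± 0.10, adjusted p = 0.974, edgeR). Mouse Ctnnb1 (0.24 ± 0.07, adjusted p = 0.0269) and Nfe2l2 (0.12 ± 0.13, adjusted p = 0.532) are given for the same comparison, in which both sides hold transgenic groups.

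The 6 contrasts differed in how many genes they called, which bears on how often a gene can meet the rule. Against WT, CTNNB1_NFE2L2_MET was higher for 26.5% and lower for 23.4% of the 14098 genes, CTNNB1_MET for 11.0% and 6.22%, and NFE2L2_MET for 13.5% and 9.89%. Against CTNNB1_NFE2L2, CTNNB1_NFE2L2_MET was higher for 13.1% and lower for 11.8%, CTNNB1_MET for 17.2% and 17.9%, and NFE2L2_MET for 18.9% and 18.3%. These shares of all genes are the background for every list count given below in the same contrast. Members that the rule chose are part of the count and median of any list that holds them. Their direction there is fixed by the rule. The rule in all 6 was met by 0.688% of genes on the higher side and 0.170% on the lower side. The same rule built for the mutant NRF2 gave 343 higher and 88 lower genes, and that for the mutant β-catenin gave 245 and 44, from the same 15 libraries. Across all tested genes, 1.12% had every MET library above every library without it and 0.475% had every MET library below, and among the signature genes this held for 86 of the 97 higher and 23 of the 24 lower genes. Higher members reached at least 2-fold in all 6 contrasts in 43 cases, and lower members in 0.

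**Figure D1:**
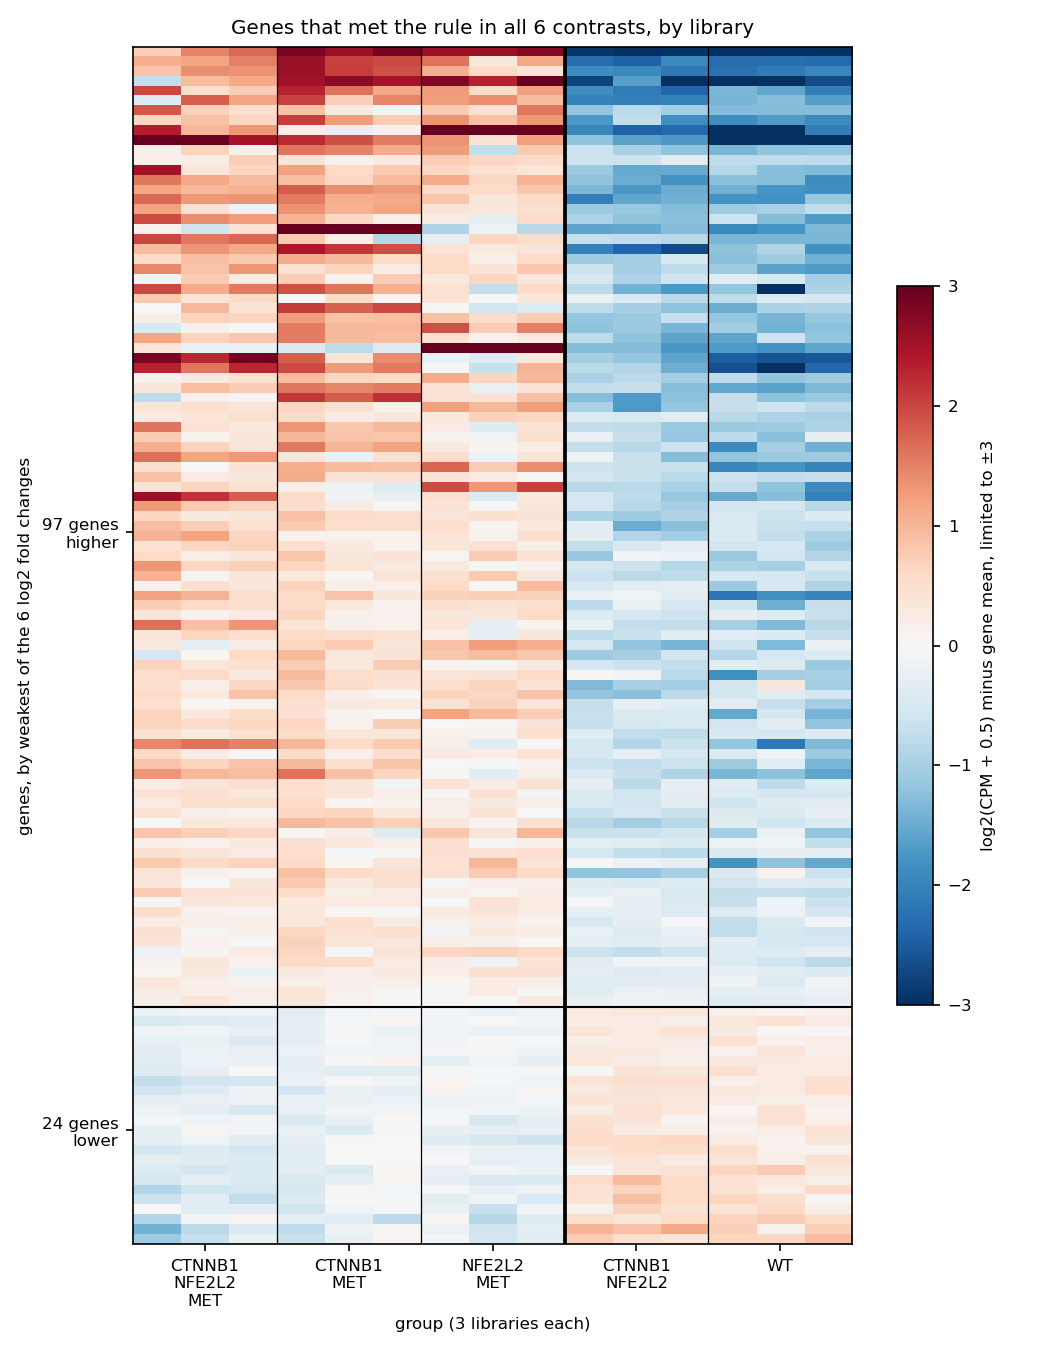
Expression of the signature genes (rows) in the 15 libraries (columns, 3 for each group), as log2(CPM + 0.5) minus the mean of the gene, with the colour limited to ±3. The 97 genes above the horizontal line are higher in the 9 libraries left of the thick line than in the 6 right of it, and the 24 below it are lower, with paler colours.

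The sizes of the changes were described over all members, since the rule itself fixes their direction. The median log2 fold change of the 97 higher genes was 1.64 in CTNNB1_NFE2L2_MET, 1.70 in CTNNB1_MET and 1.70 in NFE2L2_MET against WT, and 1.49, 1.55 and 1.30 for the same models against CTNNB1_NFE2L2. Ccl8, Mep1a and Tmc5 had no count in WT, and with these 3 genes set to a floor of 3 counts over the WT group the medians stayed at these values. The 24 lower genes had medians of -0.66, -0.46 and -0.50 against WT and -0.67, -0.57 and -0.51 against CTNNB1_NFE2L2, in the same order of models. Medians over all tested genes lay between -0.02 and 0.03 in the 6 contrasts. In bulk liver, a change in the number of cells of a type and a change in RNA per cell cannot be told apart, for these and all later values.

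Among the proteins that bring HGF to MET or bind beside it, Plxnb1 was the one member of the signature. It encodes plexin B1, a semaphorin receptor that can associate with MET at the cell surface. Plxnb1 had 104, 85.9 and 81.0 CPM in CTNNB1_NFE2L2_MET, 143, 115.8 and 109 in CTNNB1_MET, 104.9, 135 and 119 in NFE2L2_MET, 34.3, 33.9 and 39.0 in CTNNB1_NFE2L2, and 58.2, 83.8 and 49.8 in WT. WT replicate 2 lay between the lowest and the highest library with MET, so the groups overlapped for this gene, and the 6 log2 fold changes ran from 0.50 to 1.78. Of 17 listed genes for HGF, its activation and the co-receptors, 9 rose in CTNNB1_NFE2L2_MET, 3 in CTNNB1_MET and 4 in NFE2L2_MET against WT, while 6, 2 and 2 fell. Against CTNNB1_NFE2L2, 5, 2 and 4 rose and 3, 7 and 5 fell, and the list medians ran from -0.31 to 0.38 over the 6 contrasts. Over the 9 libraries against the 6, where 14.7% of all genes were higher and 11.5% lower, 4 of the 17 rose and 1 fell. Hgfac, the protease that activates HGF, was higher (1.12 ± 0.09, adjusted p = 8.15e-07, edgeR), and the co-receptor gene Nrp1 was lower (-0.75 ± 0.09, adjusted p = 5.69e-05). None of the 27 genes for adaptors and kinases that relay the MET signal met the rule, which 0.858% of all tested genes met. Over the 9 against the 6 libraries 2 of the 27 rose and 5 fell.

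Negative regulators and outputs of the ERK pathway contributed Spred1 and Dusp5. Spred1 encodes a membrane protein that blocks the activation of RAF by RAS, and Dusp5 a nuclear phosphatase that inactivates ERK and is itself induced by ERK signalling. Spred1 had 26.6, 23.0 and 27.0 CPM in CTNNB1_NFE2L2_MET, 28.3, 24.7 and 24.9 in CTNNB1_MET, 21.2, 20.6 and 27.0 in NFE2L2_MET, 14.9, 11.2 and 11.2 in CTNNB1_NFE2L2, and 13.7, 13.5 and 14.5 in WT. The lowest library with MET lay well above the highest without it, a difference among the 3 models did not pass the test (adjusted p = 0.465), and the log2 fold changes ran from 0.72 to 1.06. Dusp5 had 3.43, 2.02 and 2.43 CPM in CTNNB1_NFE2L2_MET, 4.17, 3.76 and 3.65 in CTNNB1_MET, 2.004, 1.66 and 2.75 in NFE2L2_MET, 1.498, 0.941 and 0.556 in CTNNB1_NFE2L2, and 0.863, 0.475 and 1.48 in WT. Its levels were low, the gap between the groups was narrow (lowest with MET 1.66, highest without 1.498 CPM), and it met the rule in 4 of the 15 fits that left out 1 library each. Of 20 genes of ERK output, 11 rose in CTNNB1_NFE2L2_MET, 8 in CTNNB1_MET and 5 in NFE2L2_MET against WT, with list medians of 1.04, 0.57 and 0.05. Of all genes, 26.5%, 11.0% and 13.5% were higher in these contrasts. Against CTNNB1_NFE2L2, 10, 7 and 3 rose, with medians of 0.79, 0.49 and 0.33, beside 13.1%, 17.2% and 18.9% of all genes. The count in NFE2L2_MET was therefore not above the background of that contrast. The members that fell numbered 1, 0 and 0 against WT and 0, 2 and 1 against CTNNB1_NFE2L2. Spred1 and Dusp5 are among the 20 and rose each time by the rule, so the counts and medians are in part these genes. Spry4, a receptor tyrosine kinase inhibitor of the Sprouty family, stood at 7.34 ± 1.43 CPM in CTNNB1_NFE2L2_MET, 22.1 ± 2.75 in CTNNB1_MET, 10.4 ± 2.52 in NFE2L2_MET, 1.91 ± 0.317 in CTNNB1_NFE2L2 and 11.8 ± 4.07 in WT CPM (SD, n = 3 each), so that WT overlapped the models and CTNNB1_NFE2L2 lay below them. Dusp6, the cytoplasmic ERK phosphatase, stood at 120.6 ± 22.5 CPM in CTNNB1_NFE2L2_MET, 79.4 ± 17.6 in CTNNB1_MET, 81.9 ± 17.7 in NFE2L2_MET, 69.7 ± 18.9 in CTNNB1_NFE2L2 and 21.02 ± 5.11 in WT CPM, with WT below and CTNNB1_NFE2L2 overlapping the models. Both passed the test over the 9 against the 6 libraries (Spry4 1.32 ± 0.17, adjusted p = 5.55e-05; Dusp6 1.27 ± 0.16, adjusted p = 0.000103, edgeR) but not the rule of 6 contrasts.

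**Figure D2:**
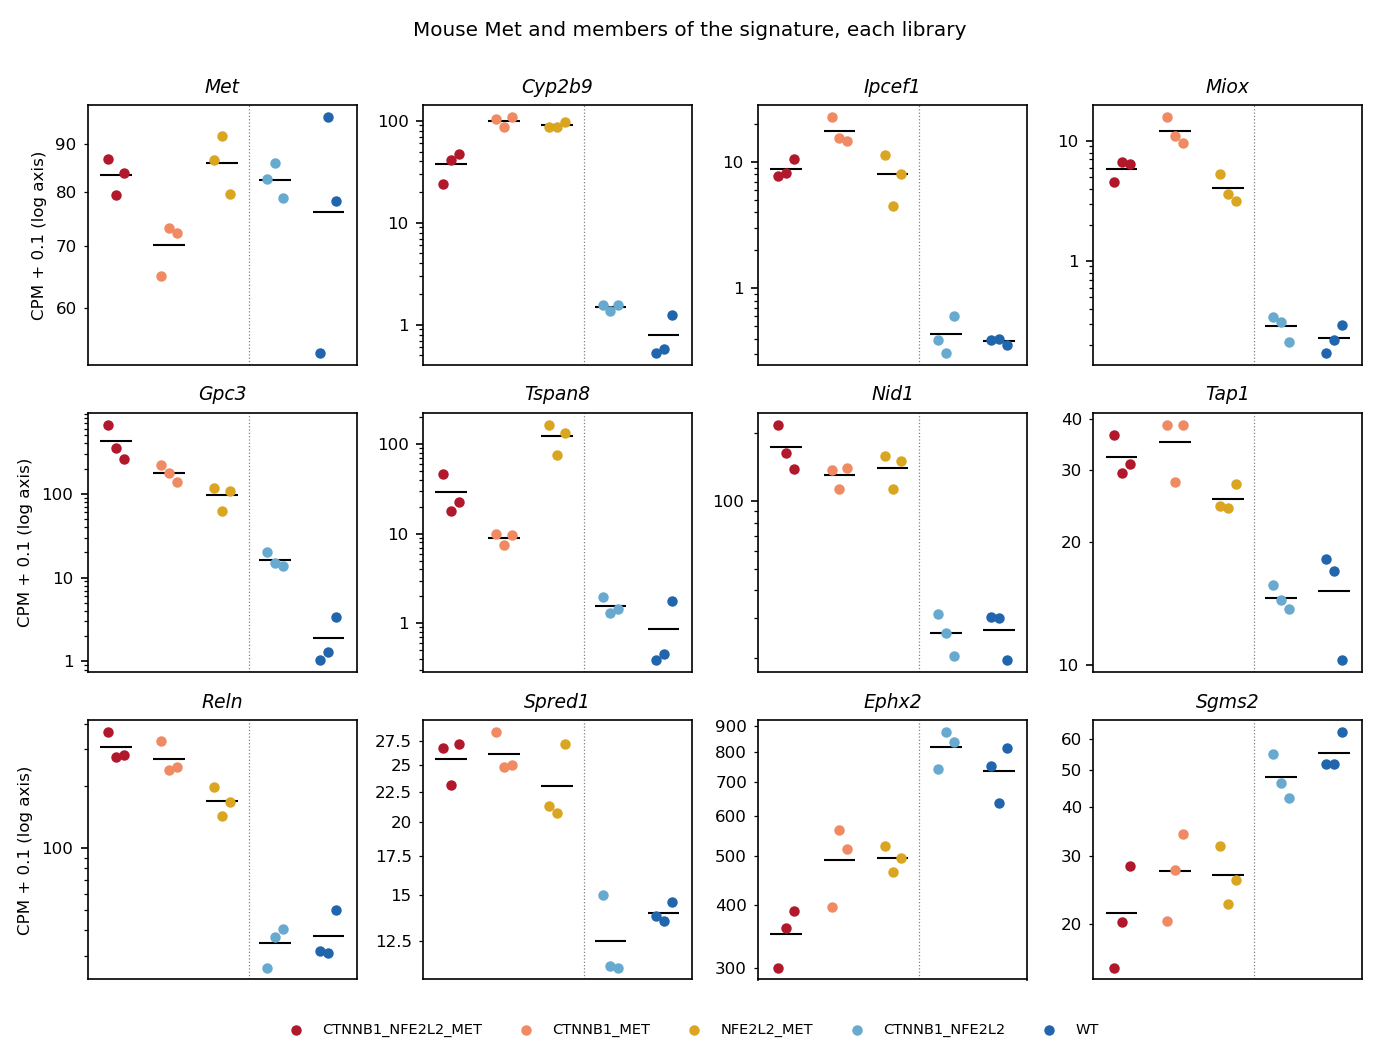
CPM plus 0.1 on log axes for Met and 11 signature genes in each library, as points, with the group mean as a line. In the panels of the 9 higher genes every point left of the dotted line (libraries with MET) lies above every point right of it, in Ephx2 and Sgms2 every point lies below, and for Met the groups overlap.

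By the weakest of its 6 log2 fold changes Cyp2b9 led the signature, and its near copy Cyp2b13 came after Ipcef1 and Miox. Both encode P450 enzymes of xenobiotic and steroid metabolism that in mouse liver are normally expressed in females and not in adult males. The libraries are labelled male. Cyp2b9 had 23.7, 41.4 and 47.7 CPM in CTNNB1_NFE2L2_MET, 104, 87.4 and 108 in CTNNB1_MET, 87.0, 86.9 and 97.5 in NFE2L2_MET, 1.45, 1.25 and 1.45 in CTNNB1_NFE2L2, and 0.431, 0.475 and 1.15 in WT. Every library with MET lay above the rest by more than an order of magnitude, and within the models CTNNB1_NFE2L2_MET was the lowest (adjusted p among the 3 models = 0.000263). Cyp2b13 had 3.23, 11.3 and 13.0 CPM in CTNNB1_NFE2L2_MET, 34.7, 39.5 and 33.8 in CTNNB1_MET, 41.0, 29.6 and 55.1 in NFE2L2_MET, 0.386, 1.46 and 0.222 in CTNNB1_NFE2L2, and 0, 0 and 0.449 in WT. Its lowest library was CTNNB1_NFE2L2_MET replicate 1, and the 6 log2 fold changes ran from 3.72 to 8.05, against 4.76 to 7.17 for Cyp2b9. The 2 genes lie in the same orientation on chromosome 7, 77152 bases apart in the RefSeq annotation of GRCm38.p6. Their start regions are shown because they are near-identical copies that moved together, which bears on how far counts can separate them. The windows cover 250 bases before to 50 bases after each annotated start, chr7:26173159-26173458 for Cyp2b9 and chr7:26061245-26061544 for Cyp2b13, both on the plus strand, and capitals mark the bases that differ.
Cyp2b9: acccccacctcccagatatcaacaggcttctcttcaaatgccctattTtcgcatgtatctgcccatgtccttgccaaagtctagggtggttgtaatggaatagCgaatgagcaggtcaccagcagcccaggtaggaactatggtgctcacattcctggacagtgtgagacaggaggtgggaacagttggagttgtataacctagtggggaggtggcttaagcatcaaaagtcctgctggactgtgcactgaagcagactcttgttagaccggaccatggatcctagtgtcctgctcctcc
Cyp2b13: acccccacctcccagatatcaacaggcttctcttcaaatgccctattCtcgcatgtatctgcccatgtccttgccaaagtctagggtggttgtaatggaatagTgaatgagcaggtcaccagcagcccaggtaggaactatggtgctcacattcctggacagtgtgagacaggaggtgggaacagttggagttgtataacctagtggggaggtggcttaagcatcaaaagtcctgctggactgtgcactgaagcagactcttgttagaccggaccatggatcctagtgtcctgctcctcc
The windows were identical at 298 of 300 bases (99.3%), with the substitutions T48C and C104T (Cyp2b9 base first, counted from the 5′ end of the window). Reads that match both copies equally are not assigned to either by unique-read counting, so the division of counts between this pair is uncertain.

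Other female-biased liver genes did not follow the pair in all models. Of 12 listed genes, 6 rose in CTNNB1_NFE2L2_MET, 10 in CTNNB1_MET and 5 in NFE2L2_MET against WT, and 5, 8 and 3 rose against CTNNB1_NFE2L2, where the list medians were 1.44, 5.93 and 0.83 and 1 gene fell, in CTNNB1_MET. Cyp2b9 and Cyp2b13 are among the 12 and rose in each of these contrasts by the rule. The counts and medians are therefore not those of the other genes alone. Medians against WT are left out because Cyp3a41a and Sult2a1 had no count in WT. Hao2, a peroxisomal hydroxyacid oxidase, averaged 1.58 ± 0.844 CPM in CTNNB1_NFE2L2_MET, 25.4 ± 5.87 in CTNNB1_MET, 0.282 ± 0.220 in NFE2L2_MET, 0.151 ± 0.0931 in CTNNB1_NFE2L2 and 0.156 ± 0.0844 in WT CPM (SD, n = 3 each), and was highest in CTNNB1_MET. Cyp2a4, a steroid-hydroxylating P450, averaged 5374 ± 716 CPM in CTNNB1_NFE2L2_MET, 289.7 ± 40.4 in CTNNB1_MET, 6804 ± 1456 in NFE2L2_MET, 5797 ± 958 in CTNNB1_NFE2L2 and 25.6 ± 24.6 in WT CPM, so that CTNNB1_NFE2L2 was as high as the models that carry the mutant NFE2L2. On the male-biased side Cyp4a12a, a fatty acid hydroxylase of male mouse liver, met the rule as a lower gene. Cyp4a12a had 80.8, 124 and 162 CPM in CTNNB1_NFE2L2_MET, 127, 194 and 222 in CTNNB1_MET, 189, 142 and 177 in NFE2L2_MET, 435, 399 and 476 in CTNNB1_NFE2L2, and 351, 235 and 354 in WT. The highest library with MET (222 CPM) lay close below the lowest without it (235 CPM), the log2 fold changes ran from -0.79 to -1.84, and it met the rule in 5 of the 15 fits that left out 1 library. Of 12 male-biased genes, 0 rose in CTNNB1_NFE2L2_MET, 0 in CTNNB1_MET and 1 in NFE2L2_MET against WT while 11, 2 and 6 fell, and against CTNNB1_NFE2L2 1, 8 and 7 rose while 4, 1 and 1 fell. Cyp4a12a is among the 12 and fell each time by the rule. In CTNNB1_MET and NFE2L2_MET against CTNNB1_NFE2L2 it was therefore the only listed gene that fell, and most of the others rose.

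Ipcef1 and Miox lay between Cyp2b9 and Cyp2b13 in the size of their weakest change, with log2 fold changes from 4.56 to 5.94 for Ipcef1 and 4.32 to 6.46 for Miox. Ipcef1, whose product binds cytohesin exchange factors for ARF proteins, had 7.68, 8.17 and 10.5 CPM in CTNNB1_NFE2L2_MET, 22.6, 15.4 and 14.7 in CTNNB1_MET, 11.3, 4.39 and 8.02 in NFE2L2_MET, 0.290, 0.209 and 0.5002 in CTNNB1_NFE2L2, and 0.288, 0.297 and 0.257 in WT. Miox, the enzyme that opens the breakdown of myo-inositol, had 4.40, 6.59 and 6.32 CPM in CTNNB1_NFE2L2_MET, 15.6, 10.8 and 9.55 in CTNNB1_MET, 5.19, 3.53 and 3.04 in NFE2L2_MET, 0.242, 0.209 and 0.111 in CTNNB1_NFE2L2, and 0.0719, 0.119 and 0.192 in WT. Both were near the detection floor without MET, highest in CTNNB1_MET, and different among the models (adjusted p = 0.00403 for Ipcef1 and 0.000259 for Miox). Neither differed between CTNNB1_NFE2L2 and WT beyond the test (Ipcef1 0.23 ± 0.63, adjusted p = 0.796; Miox 0.53 ± 0.66, adjusted p = 0.546, edgeR).

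Several secreted, matrix and surface proteins are described next; they were brought together by known role after their values were seen, and no list or count stands behind the grouping. Gpc3, which encodes the cell-surface proteoglycan glypican 3 used as a marker of hepatocellular carcinoma, had 665, 356 and 262 CPM in CTNNB1_NFE2L2_MET, 219.6, 178 and 137 in CTNNB1_MET, 117.9, 62.0 and 109 in NFE2L2_MET, 19.9, 14.8 and 13.6 in CTNNB1_NFE2L2, and 0.935, 1.19 and 3.34 in WT. It was highest in CTNNB1_NFE2L2_MET, lowest in WT, and already higher in CTNNB1_NFE2L2 than in WT (3.13 ± 0.50, adjusted p = 0.000291, edgeR), with 6 log2 fold changes from 2.58 to 7.86. Nid1, the basement membrane linker nidogen 1, had 218, 163 and 139 CPM in CTNNB1_NFE2L2_MET, 137, 112 and 140.1 in CTNNB1_MET, 158, 112 and 150.2 in NFE2L2_MET, 31.4, 25.7 and 20.3 in CTNNB1_NFE2L2, and 30.4, 30.0 and 19.4 in WT. The 3 models overlapped each other and lay above every library without MET, and the difference between CTNNB1_NFE2L2 and WT did not pass the test (-0.04 ± 0.22, adjusted p = 0.889). Reln, the secreted glycoprotein reelin that is also listed as a marker of hepatic stellate cells, had 363, 277 and 281 CPM in CTNNB1_NFE2L2_MET, 329, 237 and 246 in CTNNB1_MET, 196, 142 and 166 in NFE2L2_MET, 26.3, 37.3 and 40.5 in CTNNB1_NFE2L2, and 31.6, 31.2 and 50.1 in WT. It was lower in NFE2L2_MET than in the other models, and the models differed (adjusted p = 0.0105). Of the 14 stellate and fibroblast markers, Reln was the one that met the rule, and their summed levels were 532 to 716 CPM in CTNNB1_NFE2L2_MET, 472 to 537 in CTNNB1_MET, 420.1 to 508 in NFE2L2_MET, 171 to 298 in CTNNB1_NFE2L2 and 323 to 869 in WT. The marker sum in WT overlapped the models while Reln in WT did not, and the sum in CTNNB1_NFE2L2 lay below every model. Reln, a member that the rule chose, is itself part of these sums, with 142 to 363 CPM in the models and 26.3 to 40.5 in CTNNB1_NFE2L2. The gap between the sums of these groups is therefore in part Reln itself. Against WT, 1 of the 14 markers rose in each model and 6, 7 and 3 fell in CTNNB1_NFE2L2_MET, CTNNB1_MET and NFE2L2_MET, whereas against CTNNB1_NFE2L2 4, 4 and 6 rose, Reln among them, and 0 fell. The part of these cells in the level of Reln was not tested. Bmp7, a secreted growth factor of the TGF-β family, stood at 4.66 to 17.5 CPM with MET, against 1.48 to 3.24 CPM without, and Itih5, which binds hyaluronan, stood at 11.0 to 37.1 CPM with MET, against 2.37 to 6.91 CPM without.

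Tspan8, Cdh1 and other genes of the cell surface or of signalling were put together in the same way. Tspan8, a tetraspanin of epithelial surfaces, had 46.6, 17.7 and 22.2 CPM in CTNNB1_NFE2L2_MET, 9.87, 7.30 and 9.50 in CTNNB1_MET, 164, 75.9 and 131 in NFE2L2_MET, 1.88, 1.20 and 1.33 in CTNNB1_NFE2L2, and 0.288, 0.356 and 1.67 in WT. NFE2L2_MET exceeded the other models (adjusted p among the models = 6.20e-05) and CTNNB1_MET was the lowest of them. Tspan8 is also listed as a cholangiocyte marker, and the 12 markers of that list summed to 141 to 199 CPM in CTNNB1_NFE2L2_MET, 126 to 135 in CTNNB1_MET, 239 to 341 in NFE2L2_MET, 99.1 to 125 in CTNNB1_NFE2L2 and 124 to 217 in WT. The sums in CTNNB1_NFE2L2_MET and CTNNB1_MET overlapped WT, whereas those in NFE2L2_MET lay above every other group, and Cftr and Cldn7 were at or near 0 in all groups. Tspan8, a member that the rule chose, is itself part of these sums, with 75.9 to 164 CPM of those in NFE2L2_MET. The sums are therefore no measure of these cells apart from Tspan8. Of the 9 markers tested, 3, 5 and 7 rose in CTNNB1_NFE2L2_MET, CTNNB1_MET and NFE2L2_MET against CTNNB1_NFE2L2 and 0, 1 and 0 fell, while 3, 1 and 2 rose and 3, 2 and 0 fell against WT. Tspan8 was among those that rose each time, by the rule. The part of these cells in the level of Tspan8 was not tested. Igdcc4, an immunoglobulin-superfamily membrane protein, stood at 4.86 to 17.9 CPM in the 9 libraries with MET, against 0.222 to 0.935 CPM in the 6 without. Ocstamp, a transmembrane protein of osteoclast fusion, stood at 2.35 to 12.1 CPM with MET, against 0.261 to 0.719 CPM without, with CTNNB1_NFE2L2_MET replicate 1 far above the rest at 12.1 CPM. Rims4, a regulator of vesicle exocytosis, stood at 1.17 to 4.05 CPM with MET, against 0.222 to 0.577 CPM without, and Msantd3 at 1.33 to 8.29 CPM with MET, against 0.192 to 0.935 CPM without. Rasgrp2, an exchange factor that activates the small GTPase RAP1, stood at 21.6 to 43.4 CPM with MET, against 8.42 to 11.5 CPM without. Cdh1, the adhesion protein E-cadherin, had 114, 99.9 and 81.9 CPM in CTNNB1_NFE2L2_MET, 102, 86.1 and 85.7 in CTNNB1_MET, 84.4, 63.5 and 75.0 in NFE2L2_MET, 47.8, 21.01 and 24.8 in CTNNB1_NFE2L2, and 43.3, 37.6 and 36.9 in WT. It was the one of 25 listed motility and matrix proteolysis genes to meet the rule, as a higher gene, with log2 fold changes from 0.92 to 1.66. In that list 9 genes rose and 0 fell in CTNNB1_NFE2L2_MET against CTNNB1_NFE2L2 (list median 0.63), while 10 rose and 10 fell in CTNNB1_NFE2L2_MET against WT (list median -0.30).

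Antigen presentation was the list with the most members in the signature, 6 of the 18 tested. This depended on the scaling, since with total-count scaling Tap1 alone of the 6 still met the rule. With a term for the unmapped share none of the 6 met it. Of the 18, 14 rose in CTNNB1_NFE2L2_MET, 14 in CTNNB1_MET and 11 in NFE2L2_MET against WT, with list medians of 1.47, 1.13 and 0.77 and none lower. Against CTNNB1_NFE2L2, 13, 10 and 10 rose, with medians of 1.20, 0.76 and 0.61, and 1 gene fell, in NFE2L2_MET. Over the 9 against the 6 libraries 16 of 18 rose and 0 fell, beside 14.7% of all genes higher. The 6 members, whose rise the rule fixed, are part of all these counts and medians. Between the 2 groups without MET, where 24.5% of all genes were higher and 24.2% lower in CTNNB1_NFE2L2 than in WT, 5 of the 18 rose and 2 fell (median 0.24). Tap1, a subunit of the peptide transporter that loads class I molecules, had 36.6, 29.4 and 30.9 CPM in CTNNB1_NFE2L2_MET, 38.6, 28.0 and 38.7 in CTNNB1_MET, 24.5, 24.2 and 27.7 in NFE2L2_MET, 15.7, 14.3 and 13.6 in CTNNB1_NFE2L2, and 18.1, 17.0 and 10.2 in WT. Psmb8, a catalytic subunit of the immunoproteasome, had 87.8, 76.0 and 86.5 CPM in CTNNB1_NFE2L2_MET, 93.8, 68.6 and 86.6 in CTNNB1_MET, 47.5, 47.1 and 51.4 in NFE2L2_MET, 30.6, 28.5 and 30.3 in CTNNB1_NFE2L2, and 22.8, 38.6 and 18.3 in WT. Every library with MET lay above every one without it for both genes, and Psmb8 was lowest, among the models, in NFE2L2_MET (adjusted p among the models = 0.00857). Psmb9, another immunoproteasome subunit, stood at 21.9 to 36.8 CPM with MET, against 9.30 to 17.4 CPM without, and H2-D1, a class I heavy chain, at 193 to 314 CPM with MET, against 121.4 to 174 CPM without. Nlrc5, the transactivator of class I genes, stood at 16.4 to 25.7 CPM in the 9 libraries with MET, against 5.51 to 18.4 CPM in the 6 without, and overlapped because WT replicate 2 reached 18.4 CPM. Ciita, the transactivator of class II genes, stood at 2.20 to 9.32 CPM with MET, against 0.778 to 2.32 CPM without, which also overlapped. H2 genes are a family of close copies, so the count of a single one is uncertain.

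Psmb9, Tap1 and Psmb8 are neighbours on chromosome 17, and Psmb9 and Tap1 start 225 bases apart on opposite strands. Their shared start region is shown because 2 members of the signature read away from it. It spans chr17:34187306-34187605 (GRCm38.p6, plus strand, from RefSeq) around the Tap1 start, and capitals mark the bases between the Psmb9 and the Tap1 starts.
Tap1: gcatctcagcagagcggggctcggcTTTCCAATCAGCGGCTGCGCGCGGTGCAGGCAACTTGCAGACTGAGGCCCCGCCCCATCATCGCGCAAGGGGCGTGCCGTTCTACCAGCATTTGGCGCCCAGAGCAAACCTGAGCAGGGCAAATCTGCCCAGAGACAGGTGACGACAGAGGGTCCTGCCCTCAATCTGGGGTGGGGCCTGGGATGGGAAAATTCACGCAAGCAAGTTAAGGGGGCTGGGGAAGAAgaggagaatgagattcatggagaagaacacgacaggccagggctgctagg
The same window taken for Psmb9 shares 275 of these bases, and Psmb8 begins 969 bases beyond the end of Tap1.

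**Figure D3:**
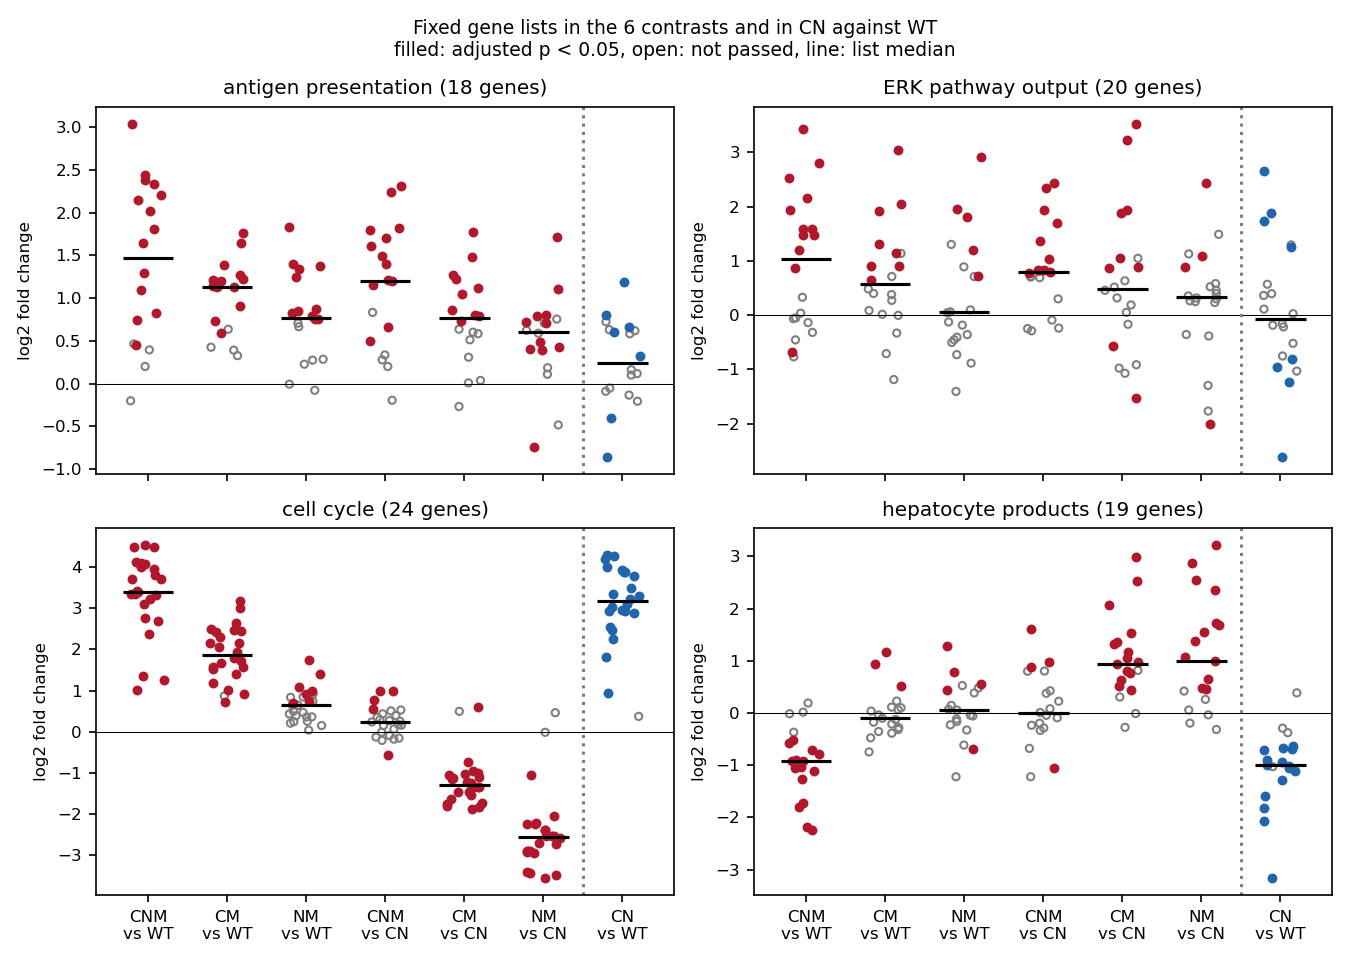
Log2 fold changes of the genes of 4 lists (points) in the 6 contrasts of the rule and, right of the dotted line, between the groups without MET, with CNM for CTNNB1_NFE2L2_MET, CM for CTNNB1_MET, NM for NFE2L2_MET and CN for CTNNB1_NFE2L2. Filled points passed an adjusted p of 0.05, lines are list medians, and the antigen presentation median lies above 0 in all 6 contrasts whereas the cell cycle median is above 0 against WT and below 0 in CM and NM against CN. The antigen presentation and ERK pathway output lists hold 6 and 2 members that the rule chose.

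Interferon and chemokine genes added Irf9, Cxcl9 and, outside the fixed lists, Ccl8. Irf9, a subunit of the transcription factor that answers type I interferon, stood at 26.5 to 35.4 CPM in the 9 libraries with MET, against 16.03 to 25.4 CPM in the 6 without. Cxcl9, a T cell chemokine induced by interferon γ, had 78.1, 47.8 and 75.4 CPM in CTNNB1_NFE2L2_MET, 62.0, 37.8 and 46.6 in CTNNB1_MET, 15.7, 9.52 and 31.8 in NFE2L2_MET, 8.65, 8.10 and 5.28 in CTNNB1_NFE2L2, and 2.09, 1.19 and 2.63 in WT. Its level in NFE2L2_MET was the lowest of the models and in WT the lowest of all, and it was already higher in CTNNB1_NFE2L2 than in WT (1.91 ± 0.50, adjusted p = 0.00743, edgeR). Ccl8, a monocyte chemokine, had 4.04, 1.49 and 1.26 CPM in CTNNB1_NFE2L2_MET, 1.78, 0.992 and 0.679 in CTNNB1_MET, 1.65, 1.20 and 3.21 in NFE2L2_MET, 0.0483, 0.209 and 0.111 in CTNNB1_NFE2L2, and 0, 0 and 0 in WT. Against a floor of 3 counts over the WT group it was at least 35.0-fold higher in CTNNB1_NFE2L2_MET, 17.8-fold in CTNNB1_MET and 31.2-fold in NFE2L2_MET. Of 20 interferon genes, 18, 15 and 15 rose in CTNNB1_NFE2L2_MET, CTNNB1_MET and NFE2L2_MET against WT, but 7, 5 and 3 against CTNNB1_NFE2L2, where 1, 8 and 7 fell. Irf9 and Cxcl9 are among the 20 and rose in each of these contrasts by the rule. In CTNNB1_NFE2L2 itself 16 of the 20 rose and 1 fell against WT, beside 24.5% and 24.2% of all genes.

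Immune cell markers were set beside these genes. Jchain, the joining chain of polymeric antibodies, had 2.15, 11.3 and 7.15 CPM in CTNNB1_NFE2L2_MET, 13.7, 5.03 and 8.93 in CTNNB1_MET, 7.60, 8.38 and 5.96 in NFE2L2_MET, 0.338, 0.314 and 0.333 in CTNNB1_NFE2L2, and 0.791, 0.890 and 0.577 in WT. Mzb1, a chaperone of antibody-secreting cells, stood at 0.666 to 1.63 CPM with MET, against 0.128 to 0.503 CPM without, and Tnfsf13, the cytokine APRIL that sustains plasma cells, stood at 3.45 to 10.5 CPM in the 9 libraries with MET, against 0.192 to 1.05 CPM in the 6 without. All 3 separated the libraries with MET from those without. The 7 markers of B and plasma cells, Jchain and Mzb1 among them, summed to 6.45 to 16.9 CPM in CTNNB1_NFE2L2_MET, 9.71 to 19.1 in CTNNB1_MET, 8.48 to 11.7 in NFE2L2_MET, 3.95 to 4.25 in CTNNB1_NFE2L2 and 2.12 to 3.86 in WT, and Pax5 was at or near 0. T and NK markers summed to 13.5 to 17.4, 10.4 to 13.3 and 5.92 to 8.07 CPM in the same models, 6.56 to 10.7 in CTNNB1_NFE2L2 and 5.46 to 6.76 in WT, with Cd8b1 and Ncr1 at or near 0, and macrophage markers to 784 to 1139.5 CPM, 486 to 607 and 741 to 815 in those models, against 732 to 992 in CTNNB1_NFE2L2 and 335 to 421 in WT. The B and plasma cell sums lay above both groups without MET in every model, but 2 of the 7 markers, Jchain and Mzb1, are members that the rule chose. Of the 6 tested, 4, 4 and 2 rose in CTNNB1_NFE2L2_MET, CTNNB1_MET and NFE2L2_MET against WT, and against CTNNB1_NFE2L2 Jchain and Mzb1 were the 2 that rose in each model while 0, 0 and 2 others fell (medians 0.56, 0.53 and -0.69). The T and NK sums lay above both groups without MET in CTNNB1_NFE2L2_MET, and overlapped CTNNB1_NFE2L2 in the other models, and the macrophage sums lay above WT in every model and overlapped CTNNB1_NFE2L2 or lay below it. The part of any of these cells in the antigen presentation and antibody genes was not tested.

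Metabolic members were spread over several pathways, and these too were named by role after their values were seen. Pklr, the liver pyruvate kinase, stood at 132 to 242 CPM in the 9 libraries with MET, against 90.8 to 124 CPM in the 6 without. It was the one of 18 glycolysis genes to meet the rule, and it overlaps Hcn3 by 41 bases on the annotation, so that without strand the 2 counts are not fully separate. Abcd2, a peroxisomal importer of very-long-chain fatty acids, had 25.3, 33.3 and 29.3 CPM in CTNNB1_NFE2L2_MET, 72.1, 59.6 and 51.3 in CTNNB1_MET, 17.3, 15.9 and 17.1 in NFE2L2_MET, 2.80, 2.09 and 1.61 in CTNNB1_NFE2L2, and 5.32, 6.76 and 3.34 in WT. CTNNB1_MET was the highest and NFE2L2_MET the lowest of the models, and CTNNB1_NFE2L2 was below WT (-1.24 ± 0.25, adjusted p = 0.00097, edgeR). Bco1, the enzyme that cleaves β-carotene into retinal, had 102.8, 89.6 and 64.5 CPM in CTNNB1_NFE2L2_MET, 67.3, 80.2 and 56.3 in CTNNB1_MET, 71.7, 72.9 and 71.8 in NFE2L2_MET, 37.6, 40.6 and 35.2 in CTNNB1_NFE2L2, and 9.49, 11.9 and 10.9 in WT. CTNNB1_NFE2L2 stood midway, above WT (1.81 ± 0.16, adjusted p = 4.61e-07) and below every library with MET. Ces2e, a carboxylesterase with close copies, stood at 268 to 564 CPM in the 9 libraries with MET, against 90.4 to 148 CPM in the 6 without. Smox, the spermine oxidase, stood at 8.48 to 17.8 CPM with MET, against 4.34 to 5.22 CPM without, Afm, the vitamin E-binding plasma protein afamin, at 382 to 773 CPM with MET, against 192 to 308 CPM without, and Abhd5, the activator of adipose triglyceride lipase, at 38.5 to 55.3 CPM with MET, against 24.1 to 36.5 CPM without.

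Each of the 24 lower genes changed by less than 2-fold in at least 1 contrast. Sgms2, a sphingomyelin synthase, had 15.3, 20.1 and 28.1 CPM in CTNNB1_NFE2L2_MET, 20.3, 27.4 and 33.99 in CTNNB1_MET, 31.6, 22.4 and 25.9 in NFE2L2_MET, 54.9, 46.0 and 42.2 in CTNNB1_NFE2L2, and 51.5, 51.5 and 62.3 in WT. Ephx2, the soluble epoxide hydrolase, had 300.4, 360.5 and 389.7 CPM in CTNNB1_NFE2L2_MET, 396, 561 and 515 in CTNNB1_MET, 524, 465 and 495 in NFE2L2_MET, 743, 876 and 837 in CTNNB1_NFE2L2, and 753, 635 and 817 in WT. In both genes every library with MET lay below every library without it, with log2 fold changes from -0.81 to -1.38 for Sgms2 and -0.57 to -1.23 for Ephx2, and CTNNB1_NFE2L2_MET had the lowest mean. Acsf2, an acyl-CoA synthetase of mitochondria, had 112, 131 and 121.3 CPM in CTNNB1_NFE2L2_MET, 117.8, 131 and 169.7 in CTNNB1_MET, 134, 119 and 120.1 in NFE2L2_MET, 240.5, 305 and 234 in CTNNB1_NFE2L2, and 216, 201 and 180.1 in WT. Coq5, a methyltransferase of ubiquinone synthesis, had 37.5, 38.6 and 40.2 CPM in CTNNB1_NFE2L2_MET, 39.3, 38.6 and 40.3 in CTNNB1_MET, 40.1, 40.6 and 43.7 in NFE2L2_MET, 60.5, 58.3 and 56.6 in CTNNB1_NFE2L2, and 53.7, 51.3 and 51.6 in WT. The spread of Coq5 within groups was small, and with Sgms2 it was one of the 2 lower genes that met the rule in all 15 fits that left out 1 library each. Letm1, an ion exchanger of the inner mitochondrial membrane, stood at 62.5 to 95.3 CPM with MET, against 104 to 148 CPM without. Ndufs7, a subunit of respiratory complex I, stood at 64.2 to 93.3 CPM with MET, against 99.99 to 136 CPM without, and Vars2, the mitochondrial valyl-tRNA synthetase, at 17.9 to 23.5 CPM with MET, against 25.9 to 34.2 CPM without. Rpusd3, a pseudouridine synthase of mitochondrial RNA, stood at 6.57 to 11.2 CPM with MET, against 11.6 to 21.5 CPM without. Rbm47, an RNA-binding protein of editing and splicing, stood at 39.7 to 63.6 CPM with MET, against 69.3 to 99.97 CPM without, and Pdilt, a disulfide isomerase homologue known from testis, at 7.48 to 14.9 CPM with MET, against 18.4 to 24.1 CPM without. Adck5 stood at 18.1 to 27.0 CPM with MET, against 25.5 to 44.3 CPM without, Dhrs11 at 19.1 to 25.6 CPM with MET, against 28.8 to 35.1 CPM without, Adgra2, an adhesion G protein-coupled receptor, at 28.9 to 40.5 CPM with MET, against 41.8 to 56.0 CPM without, and Atp6v0a1, a subunit of the proton pump of vesicles, at 35.2 to 50.6 CPM with MET, against 52.2 to 67.2 CPM without. At the margin of the rule, Vars2 (largest of the 6 adjusted p, 0.0493) and the higher gene Nucb2 (0.0488) were just inside, and Gnpda1 (0.0504) and Mettl7b (0.0505) just outside.

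Several programmes listed for these livers had no member in the signature. The signature held 0.858% of all tested genes, so having no member is not particular to lists of this size. Of 24 cell cycle genes, 24, 23 and 7 rose in CTNNB1_NFE2L2_MET, CTNNB1_MET and NFE2L2_MET against WT (medians 3.40, 1.86 and 0.64), whereas against CTNNB1_NFE2L2 4, 1 and 0 rose and 1, 22 and 22 fell (medians 0.24, -1.29 and -2.56). DNA replication genes gave 20, 17 and 11 of 20 higher against WT and 0, 15 and 19 lower against CTNNB1_NFE2L2. Of 19 hepatocyte products, 15 fell in CTNNB1_NFE2L2_MET against WT (median -0.91), while 15 rose in CTNNB1_MET and 13 in NFE2L2_MET against CTNNB1_NFE2L2 (medians 0.94 and 1.00). Alb, the gene of serum albumin, averaged 51499 ± 3396 CPM in CTNNB1_NFE2L2_MET, 97473 ± 1665 in CTNNB1_MET, 123472 ± 20329 in NFE2L2_MET, 16848 ± 2802 in CTNNB1_NFE2L2 and 50866 ± 10972 in WT CPM (SD, n = 3 each). Direct β-catenin targets, NRF2 targets, pericentral genes, AP-1 subunits, FOXO targets, YAP targets, hypoxia genes and genes of the urea cycle, bile acids, fatty acid synthesis, fatty acid oxidation, cholesterol and the acute phase also had none. Over the 9 against the 6 libraries, 9 of 15 genes of the bile acid list were lower and 0 higher (median -0.45), beside 11.5% of all genes lower. In CTNNB1_MET and in NFE2L2_MET against CTNNB1_NFE2L2, however, 5 were higher and 5 lower each. In this list the canalicular bile salt pump Abcb11 fell by 0.89 ± 0.12 on the log2 scale (adjusted p = 7.46e-05, edgeR). Of 17 oncofetal and tumour marker genes, 12, 11 and 9 rose against WT and 10, 7 and 6 against CTNNB1_NFE2L2. Those that fell numbered 3, 1 and 1 against WT and 0, 3 and 3 against CTNNB1_NFE2L2. Gpc3 alone met the rule, and it is among those that rose each time.

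Differences among the 3 models are no contrast of the rule, but the rule used the levels of the same libraries, so these tests are not independent of membership. Over all genes, 41.8% differed among the models, and among the signature genes 49 did, 43 of the higher and 6 of the lower, which is close to that background. The highest group mean of the 97 higher genes fell to CTNNB1_MET in 41, to CTNNB1_NFE2L2_MET in 33 and to NFE2L2_MET in 23 genes. Of the 24 lower genes, 16 had their lowest mean in CTNNB1_NFE2L2_MET. Between CTNNB1_NFE2L2_MET and CTNNB1_MET, 13 of the 97 were higher and 15 lower in the first, and between CTNNB1_NFE2L2_MET and NFE2L2_MET, 18 were higher and 13 lower. Between CTNNB1_MET and NFE2L2_MET, 18 were higher and 6 lower in CTNNB1_MET.

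5330417C22Rik, listed in RefSeq under the newer name Elapor1, differed most, with 3.07, 1.92 and 1.90 CPM in CTNNB1_NFE2L2_MET, 1.59, 1.13 and 1.62 in CTNNB1_MET, 35.9, 28.1 and 43.3 in NFE2L2_MET, 0.628, 0.627 and 0.333 in CTNNB1_NFE2L2, and 0.360, 0.297 and 0.449 in WT. By group mean NFE2L2_MET stood more than an order of magnitude above the other models (against CTNNB1_MET, with CTNNB1_MET on top, -4.61 ± 0.24). Sult1e1, the oestrogen sulfotransferase, had 1.59, 0.769 and 2.09 CPM in CTNNB1_NFE2L2_MET, 28.3, 40.0 and 16.03 in CTNNB1_MET, 0.530, 1.20 and 0.573 in NFE2L2_MET, 0.145, 0.157 and 0.278 in CTNNB1_NFE2L2, and 0, 0.0593 and 0.257 in WT. CTNNB1_MET was far above the other models, which were near the floor, and without any of 10 libraries in turn the gene no longer met the rule. Klk1b4, a kallikrein-related peptidase of a family of close copies, was also highest in CTNNB1_MET, with 1.28, 2.79 and 2.58 CPM in CTNNB1_NFE2L2_MET, 12.6, 9.99 and 13.2 in CTNNB1_MET, 3.54, 3.53 and 4.98 in NFE2L2_MET, 0.725, 0.418 and 0.778 in CTNNB1_NFE2L2, and 1.37, 0.771 and 0.898 in WT. Tgtp1, an interferon-inducible GTPase with a near-identical copy, had 36.6, 24.1 and 37.8 CPM in CTNNB1_NFE2L2_MET, 17.8, 6.31 and 13.3 in CTNNB1_MET, 4.01, 3.46 and 5.96 in NFE2L2_MET, 2.08, 1.83 and 1.22 in CTNNB1_NFE2L2, and 0.431, 0.356 and 0.385 in WT. Psat1, an enzyme of serine synthesis, had 101.2, 75.3 and 59.0 CPM in CTNNB1_NFE2L2_MET, 24.6, 15.1 and 14.04 in CTNNB1_MET, 23.3, 12.04 and 20.4 in NFE2L2_MET, 11.2, 9.46 and 7.23 in CTNNB1_NFE2L2, and 5.39, 6.47 and 3.66 in WT. For Tgtp1 and Psat1 the highest values were those of CTNNB1_NFE2L2_MET, and WT was the lowest group for both.

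**Figure D4:**
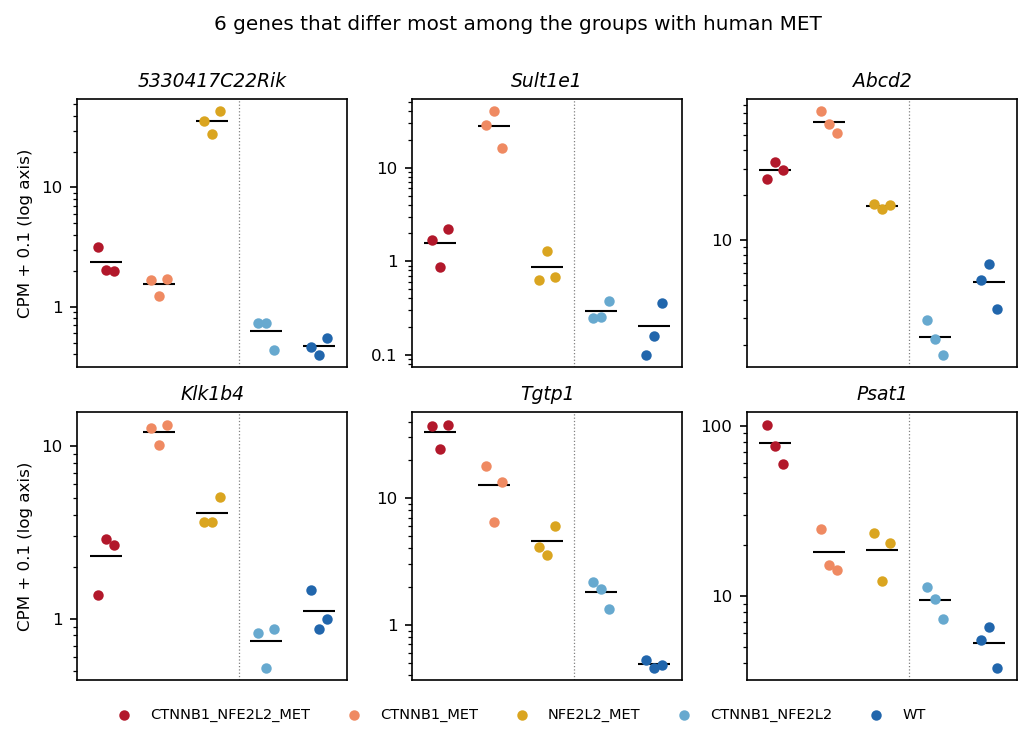
CPM plus 0.1 on log axes for the 6 signature genes with the smallest p for a difference among the models, with a point for each library and a line at the group mean. NFE2L2_MET leads in 5330417C22Rik, CTNNB1_MET in Sult1e1, Abcd2 and Klk1b4, and CTNNB1_NFE2L2_MET in Tgtp1 and Psat1.

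The 2 groups without MET were compared with each other, which is also no contrast of the rule. Both groups are references in the rule, so this comparison is not independent of membership either. Of the 97 higher genes, 19 were higher and 8 lower in CTNNB1_NFE2L2 than in WT (median 0.13), and of the 24 lower genes 3 were higher and 0 lower (median 0.06), beside 24.5% and 24.2% of all genes. Among the higher genes that also rose in CTNNB1_NFE2L2 were Gpc3, Bco1, Cxcl9, Tgtp1, Itih5 (1.41 ± 0.23) and the SH3-domain protein gene Sh3bp4 (0.88 ± 0.30). Among those that fell in CTNNB1_NFE2L2 were Plxnb1 (-0.84 ± 0.17), Nlrc5 (-0.86 ± 0.28), the interferon-inducible GTPase gene Iigp1 (-0.59 ± 0.17) and Afm (-0.46 ± 0.13).

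The members were placed on the RefSeq annotation of GRCm38.p6, all but 5 by their symbol and those 5 through an older one. Protein-coding genes made up 119 of the members and long non-coding RNAs 2. They lay on 20 chromosomes, with 13 on chromosome 2, 12 on chromosome 7, 10 on chromosome 5 and 8 on chromosome 17. Besides the Cyp2b pair and the Psmb9 to Psmb8 run, Cers6 and Nostrin (21515 bases apart), Itpripl2 and Tmc5 (105321) and Pklr, Hcn3 and Slc50a1 were neighbours within 200000 bases. Promoter windows of 300 bases were found for 76 higher and 18 lower genes. The AP-1 motif TGANTCA was present, on either strand, in 9.90% of higher and 9.68% of lower windows (10 and 3 windows). Beside these stood 5.57% of the windows of all tested genes and 7.81% of all promoters. The ETS motif CCGGAAG was present in 13.9% and 3.23%, beside 15.6% and 8.86% in the same order, and the E-box CACGTG in 9.90% and 6.45%, beside 9.58% and 7.15%. The TCF motif CTTTGA was present in 11.9% and 25.8%, the latter 8 windows, beside 12.4% and 16%. None of the 4 motifs contains another. None of them occurred in the first listed window of Cyp2b9, Cyp2b13, Tap1, Psmb9, Psmb8, Spred1 or Dusp5, the only window looked at for each.

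Membership depended on single libraries for many genes. In 15 fits that left out 1 library each, 50 of the genes met the rule every time, 48 higher and 2 lower. The count of higher genes ran from 71 to 97 over these fits and that of lower genes from 5, without CTNNB1_MET replicate 1, to 44, without CTNNB1_MET replicate 3. Genes that met the rule in all 15 included Cyp2b9, Cyp2b13, Ipcef1, Miox, Gpc3, Nid1, Reln, Spred1, Tap1, Psmb8 and Psmb9, whereas Plxnb1 met it in 12, Cdh1 in 14, Nlrc5 in 6 and Ciita in 10.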

How the data were processed

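Per the labels' protocols, RNeasy columns gave the RNA of fresh frozen liver, and libraries were Illumina ones. Per the submitters' processing notes, reads were handled with Trimmomatic and STAR on the mm10 assembly; neither versions nor the gene annotation are named there. The deposited files hold, for each library, counts per gene made by the authors in 1 unstranded and 2 single-strand columns. Each strand column held close to an equal share (49.7 to 49.9% in the first), so the unstranded column was used and overlapping or antisense genes are uncertain. The 4 summary rows were left out; unmapped, multimapping, no-gene and ambiguous reads are those rows, at up to 25.9%, 6.45%, 9.74% and 1.96% of a library. Of 24411 genes, 14098 passed filterByExpr by group. Replicates follow the order of the samples, and no pair of libraries agreed within sampling noise (chi-square per gene 13.5 to 110.3).

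Tests were run in edgeR 4.0.16 under R 4.3.3 (TMM, 1 coefficient for each group over all 15 libraries, robust quasi-likelihood F test, Benjamini-Hochberg adjustment over all tested genes, threshold 0.05); standard errors come from the F statistic. The alternatives used DESeq2 1.42.0, other scalings, filters and terms, and each library left out. On simulated counts, over 13907 genes, the rule of 6 contrasts took 50 of 96 genes with a 2-fold change and 84 of 99 with a 4-fold change, all with the right sign, and 0 of 13712 unchanged genes. Each unchanged gene had the same mean in all 15 libraries, without effects of the other transgenes or of the unmapped share. The 0 is therefore no rate of false calls for these data. The 47 gene and marker lists hold 674 genes, and no set test was run. Some genes of the signature and of the lists are counted but not reported by name here. The members, lists and tests were chosen with earlier results of these data known. Named genes are the introduced genes, list members that met the rule or had the smallest p over the 9 against the 6 libraries, the 15 higher and 15 lower genes with the largest weakest change and a mean log2 CPM of at least 0, the 2 genes on either side of the threshold, and the 6 that differ most among the models; others are marked as chosen after their values were seen, and so were Ccl8, Mep1a, Tmc5, Rasgrp2, Sh3bp4, Iigp1, Itih5, Bmp7, Afm, Smox and Abhd5. Promoter windows, coordinates and gene names are from RefSeq on GRCm38.p6, which is mm10, read with Python 3.11.15 and Biopython 1.88.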

Additional observations from a re-analysis of the deposited data

Results flagged for a closer look

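Signature genes that differed among the 3 models with human MET were picked out by an F test of their group levels. This test is no contrast of the rule but uses the same libraries, so it is not independent of membership. The adjusted p (edgeR, over all 14098 genes) was 2.06e-09 for 5330417C22Rik, 4.32e-07 for Sult1e1, 1.09e-05 for Abcd2, 1.35e-05 for Klk1b4, 2.98e-05 for Tgtp1 and 5.58e-05 for Psat1. NFE2L2_MET had the highest mean in the first, CTNNB1_MET in Sult1e1, Abcd2 and Klk1b4, and CTNNB1_NFE2L2_MET in Tgtp1 and Psat1.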

How the results depend on the processing

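The signature was recomputed with other scalings, filters, tools and sets of libraries. It held 97 higher and 24 lower genes, and 90 and 29 with RLE size factors, of which 90 and 24 were members of the reported signature. Total-count scaling gave 63 higher and 60 lower (57 and 14 shared), and moved the median of all genes by up to -0.30 (NFE2L2_MET against CTNNB1_NFE2L2). With total-count scaling the higher calls were 1300.0 and the lower 4043 in CTNNB1_MET against CTNNB1_NFE2L2 and 1135 and 5154 in NFE2L2_MET against CTNNB1_NFE2L2, and the lower calls against WT were 1892 in CTNNB1_NFE2L2_MET, 2517 in NFE2L2_MET and 2127 in CTNNB1_NFE2L2. A term for the unmapped share left 6 higher and 0 lower signature genes. It also left 238 higher and 60.0 lower genes in CTNNB1_NFE2L2_MET against WT, 442 and 98 in CTNNB1_MET against WT, 127 and 14 in NFE2L2_MET against WT, 734 and 898 in CTNNB1_MET against CTNNB1_NFE2L2, 426 and 182 in CTNNB1_NFE2L2 against WT, 689 and 517 over the 9 against the 6 libraries, and 2928 genes that differ among the models; the cause was not tested. Fits of only the libraries of a contrast gave 9 lower signature genes, and 503 and 812 lower genes in CTNNB1_MET and NFE2L2_MET against WT. The lower signature genes numbered 15 with no low-count filter, 41 with DESeq2 (24 shared) and 8 without NFE2L2_MET replicate 2 and WT replicate 1, the library with the lowest total, an alternative added after the data were seen, as were the fit without NFE2L2_MET replicate 2 and WT replicate 2 (90 higher, 28 lower) and 1 strand alone (77 higher, 16 lower). Requiring 2-fold gave 43 and 0, and non-overlap of the groups in its place gave 158 and 67. Leaving out 1 library gave 71 to 97 higher and 5 to 44 lower signature genes. The same fits gave 1141 to 2059 higher in CTNNB1_NFE2L2_MET against CTNNB1_NFE2L2, 971 to 1628 higher in CTNNB1_MET against WT, 323 to 960 lower in CTNNB1_MET against WT and 774 to 1471 lower in NFE2L2_MET against WT. Under the unmapped term the weakest log2 fold change of the 6 turned to 0.0032 in Ndufs7, -0.0058 in D10Wsu102e, -0.067 in Hid1, -0.072 in Psmb8, 0.034 in Clpp, 0.027 in Cyp4a12a, -0.33 in Myadm, 0.16 in Rabac1, -0.39 in Nlrc5 and -0.30 in Plxnb1, under total-count scaling it turned to -0.0058 in Brip1os, an antisense gene, and with 1 strand to -0.12 in Gm30505. No paired analysis was possible because replicates of different groups share no number in the sample titles. Low counts limit genes such as Mzb1, Dusp5, Ccl8 and Rims4, where a few reads set the level.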
